A study of Mus musculus with 24 samples.

Results

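Neuro2A cells that expressed DiCas7-11 beside an NTG crRNA, one designed against no transcript of the cell, were compared with untransfected Neuro2A cells, a comparison that used 6 of the 24 RNA-seq samples of the series. The samples were chosen by their labels and not by any measured value: 3 DiCas7-11 NTG samples and 3 untransfected samples. Neuro2A is a mouse neuroblastoma line, and the transfected cells carried a plasmid with DiCas7-11 under the CAG promoter and the crRNA under the U6 promoter, delivered with Lipofectamine 3000 and collected 48 hr later. The untransfected cells received neither reagent nor plasmid as far as the labels say. Hence the reagent, the plasmid DNA, the effector and the crRNA cannot be told apart as sources of a difference between both groups. A further limit is that the columns of the count table name the control arm EV, whereas the sample labels name it NTG, so that its crRNA insert rests on the labels. The other samples hold RfxCas13d and its high-fidelity variant HiFi-RfxCas13d, each with the NTG or the ataxin-2-targeting (mATXN2) crRNA, DiCas7-11 with the mATXN2 crRNA, and cells given an antisense oligonucleotide against ataxin-2. The series describes its replicates as biologically independent.

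DiCas7-11 is a single-protein CRISPR effector of the type III-E family from Desulfonema ishimotonii that cuts RNA paired with its crRNA. Mammalian cells read foreign nucleic acid in the cytosol through sensors: cGAS and STING respond to DNA, while RIG-I (encoded by Ddx58) and MDA5 (encoded by Ifih1) respond to RNA through MAVS. These sensors switch on interferon genes, and secreted interferon acts through its receptors on transcription factors, STAT2 and IRF9 among them, which bind an interferon-stimulated response element (ISRE) at antiviral genes.

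The DiCas7-11 NTG samples held 13607843 to 16918944 expected counts and the untransfected samples 12665725 to 16813658. The spread between DiCas7-11 NTG replicates was wide: pairs differed by 3.33 to 5.58 times counting noise in chi-square per gene, whereas pairs of the other 7 groups differed by 1.68 to 2.55 times. Atxn2, which the NTG crRNA does not target, was at 115, 120 and 119 CPM (counts scaled to a library of 1000000) in DiCas7-11 NTG samples and at 123, 125 and 121 CPM in untransfected samples (log2 fold change −0.06, adjusted p = 0.287 by edgeR's quasi-likelihood test with Benjamini-Hochberg adjustment). The cell line was checked against 16 neuroblast markers, which summed to 1843 to 1892 CPM in DiCas7-11 NTG samples and 1916 to 1931 CPM in untransfected samples. Of the 14 that passed the filter on low values, 2 were higher (Hand2, and Insm1, whose call was lost under 8 of 20 alternatives), 2 were lower (Phox2a and Tubb3) and 10 were not called. Epithelial markers summed to 0.291 to 0.434 and 0.240 to 0.385 CPM, and glial markers to 14.4 to 17.3 and 15.9 to 19.3 CPM, in DiCas7-11 NTG and untransfected samples respectively, and none of either list was called by edgeR or DESeq2. In bulk samples, fewer cells of a type and less RNA per cell cannot be told apart.

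Of 13901 genes tested, 3044 (21.9%) were called at an adjusted p under 0.05, 1549 (11.1%) higher and 1495 (10.8%) lower in DiCas7-11 NTG samples. Most changes were small, with a median size of 0.205 (log2) among the genes called, and 129 of them (0.928% of the genes tested) changed by over 1 on the log2 scale, 66 up and 63 down, or 57 by DESeq2 and 54 with a minimum of 2 CPM. The count fell to 1800 when only the 6 samples compared entered the fit. With upper-quartile scaling, 39.4% of the called genes were higher instead of 50.9%. Across genes, log2 fold changes ran with GC content (Spearman's rho −0.263) more than with transcript length (0.0181), and a correction for GC content left 2942 called, 2461 of them among the 3044.

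The interferon response had the largest share of members called among the 22 lists. Of 57 listed genes, 51 were tested, 38 were called higher and 1 lower, so that 76.5% were called against 21.9% of all genes, with a median log2 fold change of 1.16 against −0.00616. Among those called, 5 had no count in any untransfected sample. These 5 passed the filter on low values only through other samples, which favoured a rise in advance, and the share without them was not computed. Among the 12 largest rises by the naming rule, 7 belonged to this list (Ifit1, Oasl2, Isg15, Rsad2, Oasl1, Ifi27 and Ddx58), and a further 4 are interferon-inducible genes outside it (Cxcl10, Ifitm3, Apol9a and Apol9b). The 6 list members with the smallest p were all antiviral effectors: Ifit1, Isg15, Ifi27, Oasl2, Rsad2 and Oasl1. Their promoters are shown because interferon acts on such genes through the ISRE. The windows hold the 250 bases before the annotated start site in RefSeq (build GRCm38.p6, another build than the one the counts were made on), 5′ to 3′ on the gene's strand. Capitals mark the ISRE core, searched on both strands as GAAANN followed directly by GAAA. Ifi27 had no window in the table.
Ifit1 (chr19:34640639-34640888, plus strand): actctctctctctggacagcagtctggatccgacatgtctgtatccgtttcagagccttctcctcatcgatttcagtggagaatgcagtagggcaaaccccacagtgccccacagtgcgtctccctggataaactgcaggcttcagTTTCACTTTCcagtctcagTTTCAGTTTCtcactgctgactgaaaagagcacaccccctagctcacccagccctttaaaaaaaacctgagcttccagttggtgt
Isg15 (chr4:156200819-156201068, minus strand): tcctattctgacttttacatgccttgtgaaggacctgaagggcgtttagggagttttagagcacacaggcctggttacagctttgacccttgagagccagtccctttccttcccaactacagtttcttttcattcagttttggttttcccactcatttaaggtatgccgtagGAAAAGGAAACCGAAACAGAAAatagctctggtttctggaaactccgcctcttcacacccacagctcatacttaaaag
Rsad2 (chr12:26456453-26456702, minus strand): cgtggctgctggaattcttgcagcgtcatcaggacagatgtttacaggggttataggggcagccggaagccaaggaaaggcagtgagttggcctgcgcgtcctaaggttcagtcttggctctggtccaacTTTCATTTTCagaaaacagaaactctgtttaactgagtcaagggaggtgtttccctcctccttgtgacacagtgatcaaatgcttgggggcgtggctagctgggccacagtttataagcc
Oasl2 (chr5:114896684-114896933, plus strand): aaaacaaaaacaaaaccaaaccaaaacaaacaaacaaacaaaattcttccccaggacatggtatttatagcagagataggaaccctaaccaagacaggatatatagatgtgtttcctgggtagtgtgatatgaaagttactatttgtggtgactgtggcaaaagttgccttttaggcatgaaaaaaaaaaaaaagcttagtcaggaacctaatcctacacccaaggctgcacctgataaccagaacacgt
Oasl1 (chr5:114922990-114923239, plus strand): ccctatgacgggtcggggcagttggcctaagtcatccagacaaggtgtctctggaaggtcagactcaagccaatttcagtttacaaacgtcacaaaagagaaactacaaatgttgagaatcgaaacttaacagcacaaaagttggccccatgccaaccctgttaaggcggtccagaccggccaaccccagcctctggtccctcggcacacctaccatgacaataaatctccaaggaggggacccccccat
Ifit1 held 2 matches, on the minus strand, which ended 94 and 75 bases before the start site. Isg15 held 3 matches that overlap each other and end 68, 62 and 56 bases before the start, and Rsad2 held 1, which ended 110 bases before it. Oasl2 and Oasl1 held none in these windows. Of the 40 tested list members with a window, 12 (30%) held a match, compared with 332 of 10847 tested genes (3.06%) and 936 of 27025 genes in the table (3.46%). The 12 include Stat2 and Ifit3, which were not called. Such a match is a description of the letters in the window, not evidence of binding.

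The effectors carried the largest changes, with 28 of 32 tested called higher. Ifit1, which binds foreign RNA ends, was at 16.7, 14.9 and 15.4 CPM in DiCas7-11 NTG samples and at 0.0631, 0.117 and 0.0782 CPM in untransfected samples. The untransfected values amount to 3.92 expected counts over 3 samples, so that the ratio of 178 has a counting interval from 68 to 643 (exact, at 95% confidence). Oasl2, an oligoadenylate synthetase-like protein, was at 8.60, 9.14 and 7.34 CPM compared with 0.320, 0.299 and 0.239 CPM (log2 fold change 4.82 ± 0.329 SE, edgeR's adjusted p = 2.121e-11). The ubiquitin-like modifier Isg15 was at 11.7, 9.13 and 9.09 CPM compared with 0.773, 0.968 and 0.645 CPM, a log2 fold change of 3.62 ± 0.189 (edgeR's adjusted p = 6.703e-14). The rule for naming the largest changes required groups without overlap, which 31.9% of all genes tested met.

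Rsad2, which encodes viperin, was at 9.85, 7.15 and 8.33 CPM compared with 0.889, 0.765 and 0.783 CPM, and Oasl1, which restrains translation of Irf7 mRNA, was at 7.73, 7.83 and 6.18 CPM compared with 1.46, 0.971 and 1.05 CPM. Ifi27 was the most expressed of the 6 in CPM of its own gene, with 116, 91.9 and 90.7 CPM in DiCas7-11 NTG samples and 26.4, 23.5 and 23.9 CPM in untransfected samples, a log2 fold change of 2.01 ± 0.132 (edgeR's adjusted p = 1.021e-11). In each of these genes the lowest DiCas7-11 NTG sample lay above the highest untransfected sample, which the naming rule required. Beyond the 6, 5 called members had no count in any untransfected sample, named here after their values were seen. Against a floor of 3 counts over the untransfected group, Gbp3, an interferon-inducible GTPase, was at least 26.8-fold higher, the helicase Ddx60 at least 9.85-fold, Oas2 at least 8.07-fold, Ifi44 at least 7.60-fold and the RNA sensor Ifih1 at least 7.54-fold. With these genes at their bounds, the median of the list was again 1.16. It could not move, because their fitted values and their bounds all lie above it. These 5 genes passed the filter on low values only through samples other than the untransfected ones. Some effectors changed less: Adar, the RNA-editing deaminase, had a log2 fold change of 0.28 and Trim25, the RIG-I ubiquitin ligase, of 0.24, also named after their values were seen.

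Of the sensors, 7 of 9 tested were called higher. Ddx58 was at 21.1, 20.5 and 19.6 CPM in DiCas7-11 NTG samples and at 7.64, 6.73 and 5.78 CPM in untransfected samples (log2 fold change 1.59 ± 0.146, edgeR's adjusted p = 4.823e-09). The RNA-activated kinase gene Eif2ak2 rose less, by 0.45 on the log2 scale (edgeR's adjusted p = 3.926e-06), and Cgas was called at 0.42 (edgeR's adjusted p = 0.0373), a call lost under 7 of 20 alternatives, with 8.46, 8.36 and 7.65 CPM compared with 5.04, 5.39 and 8.19 CPM. The adaptors of both routes were not called: Mavs had a log2 fold change of −0.17 (edgeR's adjusted p = 0.118) and Sting1 one of −0.03 (edgeR's adjusted p = 0.816). These members show a rise of the sensors without a called change of their adaptors.

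Among the transcription factors 3 of 6 were called higher, among them Irf7 (log2 fold change 2.57, 1.75, 1.60 and 1.53 CPM compared with 0.133, 0.244 and 0.507 CPM) and Irf9 (1.42, 14.1, 11.1 and 10.5 CPM compared with 4.27, 4.38 and 4.64 CPM). Irf3, which acts directly below the sensors, had a log2 fold change of −0.05 (edgeR's adjusted p = 0.773). Of the 4 receptor genes, Ifngr2 was called at −0.17 (edgeR's adjusted p = 0.0282, lost under 5 of 20 alternatives) and Ifnar1 was not called at −0.04 (edgeR's adjusted p = 0.658). The summed level of the whole list was 925 to 1002 CPM in DiCas7-11 NTG samples and 659 to 690 CPM in untransfected samples.

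**Figure D1:**
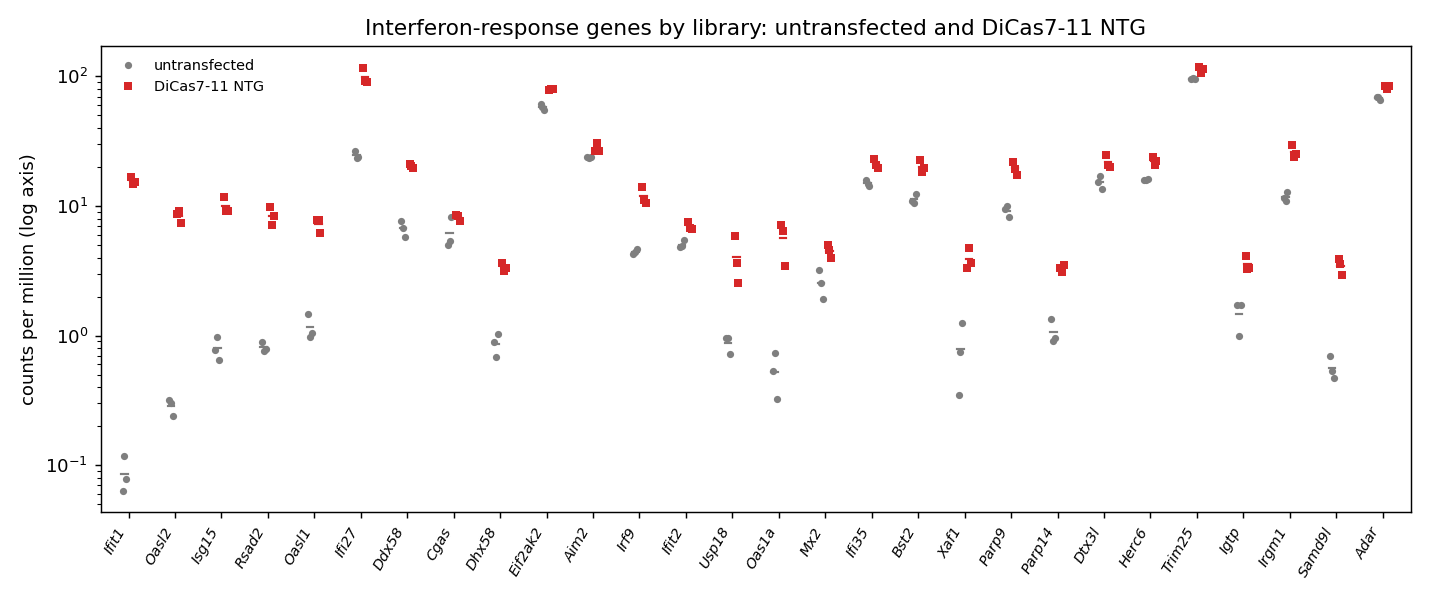
CPM (log axis) of 28 interferon-response genes called higher, chosen from those with a mean of at least 3 CPM in DiCas7-11 NTG samples and no value of 0; points are libraries and bars are means of 3. Ifit1 lies at 14.9 to 16.7 CPM in DiCas7-11 NTG samples and at 0.0631 to 0.117 CPM in untransfected samples, whereas Eif2ak2 lies at 78.9 to 80.1 and 55.5 to 61.1 CPM.

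Markers of macrophages and microglia, cells that respond readily to interferon, were near 0: their 8 genes summed to 0.495 to 0.757 CPM in DiCas7-11 NTG samples and 0.0642 to 0.382 CPM in untransfected samples. Adgre1, Aif1, Tyrobp and Cx3cr1 were at 0 in all 6 samples. Of the 8, 4 to 6 were at 0 in each DiCas7-11 NTG sample and 7 in each untransfected sample. Cd68 alone passed the filter, and it was not called.

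Of 17 chemokine and NF-kB genes tested, 3 were called higher and 1 lower (23.5%, near the 21.9% of all genes). Cxcl10, a chemokine for T cells, was at 7.46, 5.50 and 6.59 CPM compared with 0.645, 0.599 and 0.879 CPM (log2 fold change 3.22 ± 0.253, edgeR's adjusted p = 2.957e-10). Ccl5 counts were low, 22.8 compared with 1.01 over each group, a ratio of 21.7 with a counting interval from 3.6 to 912. The transcription factor gene Nfkb1 rose by 0.25 (edgeR's adjusted p = 0.00901), Tnfaip2 was lower by −0.67 (edgeR's adjusted p = 0.00555), and the inhibitor Nfkbia was not called at 0.03 (edgeR's adjusted p = 0.790).

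The other interferon-inducible genes among the largest rises were Ifitm3, which blocks virus entry at endosomes, and the apolipoprotein L genes Apol9a and Apol9b. Ifitm3 was at 11.0, 9.63 and 7.66 CPM compared with 1.21, 0.651 and 1.43 CPM, a log2 fold change of 3.12 ± 0.284 (edgeR's adjusted p = 4.355e-09). Apol9a was at 13.7, 9.37 and 10.0 CPM compared with 1.66, 1.08 and 1.53 CPM, and Apol9b at 11.7, 9.20 and 8.29 CPM compared with 2.84, 3.47 and 2.47 CPM. The 2 paralogs share sequence, so that reads could be split between them and each value is uncertain on its own.

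Antigen presentation by MHC class I, a classical interferon target, moved in part: 5 of 12 tested genes were called higher and 0 lower by edgeR (41.7%; 5 and 0 by DESeq2, 5 and 1 at an unadjusted p under 0.05; median log2 fold change 0.07). Peptide processing genes led. Erap1, the trimming peptidase, was at 38.6, 39.6 and 37.1 CPM compared with 24.1, 27.8 and 24.7 CPM (log2 fold change 0.59 ± 0.0613, edgeR's adjusted p = 5.616e-08). The immunoproteasome subunits Psmb8 and Psmb10 rose by 0.30 and 0.36, and the peptide editor Tapbp by 0.31. The class I chains H2-K1 (−0.04, edgeR's adjusted p = 0.435) and H2-D1 (−0.10, edgeR's adjusted p = 0.0608) were not called.

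The largest rise by fitted value was Npcd, and it is not a reliable one. Npcd had 0 counts in all untransfected samples and 192, 741 and 500 in DiCas7-11 NTG samples, which puts it at least 460-fold higher against the floor. Its neighbour Nptxr, with which it shares sequence, moved the other way, from 1387, 1581 and 1108 counts in untransfected samples to 1018, 602 and 834 counts. The sum of both was 79.9 to 88.4 CPM in DiCas7-11 NTG samples and 88.2 to 94.7 CPM in untransfected samples, so that an assignment of reads between the pair cannot be told apart from a change. In the same way, RfxCas13d NTG replicate 3 held 0 CPM of Npcd and 89.3 CPM of Nptxr. Among predicted genes and pseudogenes that met the rule, 24 were higher and 50 lower; the largest rise was Gm16973 (log2 fold change 0.71) and the largest fall 4933409K07Rik (−0.97).

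The 12 largest falls were led, apart from Btg3, by Acta2, Fblim1 and Myl9. Acta2, smooth muscle actin, was at 7.45, 8.2 and 5.93 CPM in DiCas7-11 NTG samples and at 37.1, 33.3 and 36.2 CPM in untransfected samples (log2 fold change −2.30 ± 0.122, edgeR's adjusted p = 6.703e-14). The myosin light chain gene Myl9 was at 3.58, 3.37 and 4.11 CPM compared with 8.62, 8.82 and 9.15 CPM, and the troponin gene Tnnt2 at 4.25, 5.05 and 3.90 CPM compared with 10.4, 8.12 and 8.68 CPM. Fblim1, which links filamin to adhesions, was at 4.35, 3.77 and 4.37 CPM compared with 10.9, 9.27 and 11.3 CPM. The 8 fibroblast markers summed to 11.4 to 12.9 CPM in DiCas7-11 NTG samples and 15.7 to 16 CPM in untransfected samples, with Pdgfrb called at −0.38 (edgeR's adjusted p = 0.0386, lost under 11 of 20 alternatives) and Col1a2 and Thy1 at 0 in all 6 samples; the part of these markers in the falls was not tested.

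Igfbp2, which binds insulin-like growth factors, fell from 7.26, 7.31 and 6.59 CPM to 3.71, 3.20 and 3.20 CPM, and the axon guidance ligand Slit1 from 18.7, 18.9 and 19.6 CPM to 11.0, 9.30 and 9.73 CPM (log2 fold change −0.93 ± 0.0842, edgeR's adjusted p = 4.25e-09). Selenbp1, the microtubule-binding gene Eml2, the cAMP-responsive exchange factor Rapgef3 and the phospholipase Pla2g2e were lower by −1.05, −1.03, −0.92 and −0.87 on the log2 scale. Btg3, an antiproliferative gene, had the largest fitted fall (−2.44), from 127, 174 and 116 counts to 39.9, 0 and 39.5 counts. Its adjusted p of 0.0374 by edgeR was lost under 8 of 20 alternatives, among them DESeq2, and without DiCas7-11 NTG replicate 2 or 3 or any 1 untransfected replicate.

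Most glycolysis and hypoxia genes were called lower. Of 32 tested, 22 (68.8%) were called lower and 0 higher by edgeR, with a median log2 fold change of −0.238. At an unadjusted p under 0.05 the counts were 26 and 0, and by DESeq2 19 and 0. The falls spanned glucose uptake, the pathway's enzymes and hypoxia-inducible genes: 15 of 19 glycolysis genes and 7 of 13 hypoxia targets were called. Slc2a3, a glucose transporter gene, was at 241, 205 and 227 CPM compared with 293, 279 and 276 CPM (log2 fold change −0.34 ± 0.0428, edgeR's adjusted p = 1.513e-06). Eno2, neuronal enolase, was at 51.5, 36.5 and 46.9 CPM compared with 83.4, 69.1 and 69.2 CPM (−0.73 ± 0.0947, edgeR's adjusted p = 2.259e-06), and the aldolase gene Aldoc at 9.65, 5.33 and 8.47 CPM compared with 17.9, 13.5 and 14.4 CPM. In each of these 3 genes DiCas7-11 NTG replicate 2 was the lowest sample.

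Gapdh, often used as a reference gene, was at 2080, 1860 and 1920 CPM compared with 2240, 2230 and 2170 CPM, a log2 fold change of −0.18 ± 0.0292 (edgeR's adjusted p = 3.906e-05). The mitophagy receptor Bnip3l and the MYC antagonist Mxi1 were lower by −0.42 and −0.36. Hif1a mRNA, whose product acts mainly through protein stability, was not called at 0.01 (edgeR's adjusted p = 0.807). Without DiCas7-11 NTG replicate 2, the count of lower genes was 14 instead of 22.

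The integrated stress response list, which holds ATF4's amino acid genes, was mainly lower: of 31 tested, 17 were called lower and 2 higher (61.3%; median log2 fold change −0.138). Amino acid supply made up most of it, with 11 of 15 genes lower. Asns, asparagine synthetase, was at 627, 617 and 618 CPM compared with 731, 725 and 729 CPM (log2 fold change −0.23 ± 0.0177, edgeR's adjusted p = 1.707e-10). Pck2, mitochondrial PEP carboxykinase, was at 89.7, 87.5 and 84.1 CPM compared with 117, 109 and 116 CPM, and the proline synthesis gene Pycr1 at 36.7, 35.2 and 32.7 CPM compared with 48.8, 51.8 and 46.6 CPM. The groups did not overlap in these genes, as was likely for genes chosen by smallest p. Of all genes tested, 31.9% had no overlap.

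The 2 members that rose were not of amino acid supply. Atf3, a stress-induced transcription factor, was at 16.2, 16.2 and 14.0 CPM compared with 11.3, 9.99 and 8.54 CPM (log2 fold change 0.62 ± 0.101, edgeR's adjusted p = 4.321e-05). Ppp1r15a, which restores translation by recruiting a phosphatase to eIF2, was at 51.1, 51.2 and 50.5 CPM compared with 42.0, 40.3 and 39.4 CPM. The mTORC1 inhibitor Ddit4 was lower by −0.38 (edgeR's adjusted p = 4.117e-05). The mRNA of Atf4 itself was not called at −0.05 (edgeR's adjusted p = 0.139), nor that of Ddit3 at 0.08 (edgeR's adjusted p = 0.452). Of the 26 tested list members with a promoter window, 7 (26.9%) held TGATGNAA on either strand, compared with 267 of 10847 tested genes (2.46%).

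**Figure D2:**
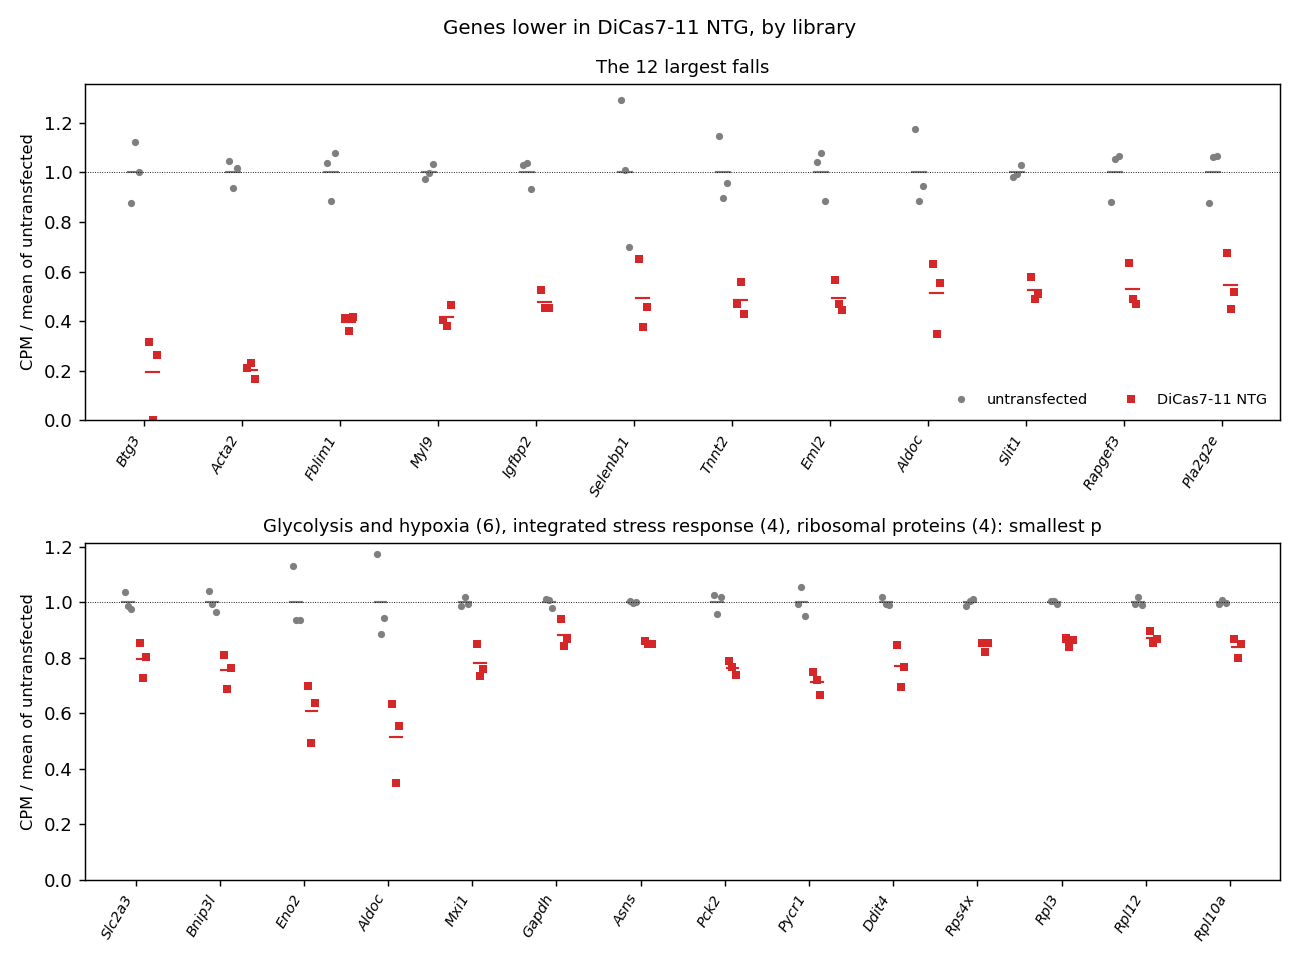
CPM of each library divided by the mean of the 3 untransfected libraries; points are libraries and bars are means of 3. Acta2 lies lowest apart from Btg3, and the genes of the lower panel sit below 1 in all 3 DiCas7-11 NTG libraries.

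Cytosolic ribosomal protein genes were slightly lower: 47 of 84 tested were called lower and 1 higher (57.1%), with a median log2 fold change of −0.074. Rps4x was at 1340, 1290 and 1340 CPM compared with 1550, 1580 and 1590 CPM (−0.24 ± 0.0187, edgeR's adjusted p = 1.707e-10), and Rpl3 at 1110, 1070 and 1100 CPM compared with 1280, 1280 and 1270 CPM. The 1 gene called higher was Rpl7l1, a nucleolar paralog (0.12, edgeR's adjusted p = 0.00709). The summed level of the list was 52140 to 52580 CPM in DiCas7-11 NTG samples and 55330 to 55940 CPM in untransfected samples. With only the 6 samples compared, 21 were called lower. The ribosomal stalk gene Rplp0, called at −0.07, had a log2 fold change of 0.0027 with a correction for GC content.

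Subunits of oxidative phosphorylation encoded in the nucleus had no common direction, with 6 of 78 called higher and 12 lower (23.1%, close to 21.9% of all genes). Without DiCas7-11 NTG replicate 2 the counts were 3 and 7, without untransfected replicate 1 3 were higher, and without untransfected replicate 2 7 were lower. The succinate dehydrogenase subunit Sdhc was lower by −0.19 (edgeR's adjusted p = 7.417e-05) and the complex I subunit Ndufs1 higher by 0.12 (edgeR's adjusted p = 0.00162).

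Lipid genes split by pathway. For cholesterol synthesis and its regulators, 9 of 26 tested were lower and 3 higher (46.2%), or 5 and 1 with only the 6 samples compared. Srebf2, the master regulator of the pathway, was at 351, 328 and 333 CPM compared with 401, 412 and 397 CPM (log2 fold change −0.26 ± 0.0317, edgeR's adjusted p = 9.021e-07), and the reductase gene Dhcr7 and the squalene synthase gene Fdft1 were lower by −0.27 and −0.20.

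For fatty acid synthesis and sterol efflux, 8 of 14 were higher and 1 lower (64.3%; median 0.139). Abca1, the cholesterol exporter, was at 33.6, 40.0 and 45.6 CPM compared with 26.8, 23.6 and 22.6 CPM (log2 fold change 0.71 ± 0.0781, edgeR's adjusted p = 1.435e-07). Acaca and Fasn, which make malonyl-CoA and palmitate, rose by 0.25 and 0.23, and the desaturase gene Scd2 was at 3070, 2960 and 3040 CPM compared with 2780, 2760 and 2700 CPM. Thus the 2 lipid lists differed in the direction of most of their called members.

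Some proliferation genes were modestly higher. Of 38 tested genes of DNA replication and the G1/S step, 16 were called higher and 0 lower by edgeR (42.1%; median 0.087), and of 30 mitosis genes 10 were higher and 0 lower (33.3%; median 0.0895). DESeq2 also called 0 lower in both lists, as did an unadjusted p under 0.05. The cyclin gene Ccne2 was at 123, 146 and 133 CPM compared with 103, 113 and 113 CPM (log2 fold change 0.30 ± 0.0516, edgeR's adjusted p = 0.00011). Of the mitosis genes, Ccnb1 rose by 0.15 (edgeR's adjusted p = 0.000105) and Mki67 by 0.17 (edgeR's adjusted p = 0.00520). These counts depended on single libraries: without untransfected replicate 1 they fell to 7 and 2 higher, and without DiCas7-11 NTG replicate 2 or 3 the mitosis count fell to 3 or 5. The arrest genes Cdkn1a and Btg2 were lower by −0.24 and −0.52, the p53 inhibitor Mdm2 higher by 0.13 and the nuclease gene Aen higher by 0.36, within a p53 list of 19 with 3 higher and 2 lower (26.3%, compared with 21.9% of all genes).

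RNA decay genes were higher in 15 of 33 (45.5%; median 0.115) and lower in 0 by edgeR (0 also by DESeq2 and at an unadjusted p under 0.05), among them 7 of 11 exosome genes and 5 of 9 genes of nonsense-mediated decay. Exosc2, an exosome cap subunit, was at 129, 131 and 132 CPM compared with 111, 113 and 115 CPM (log2 fold change 0.21 ± 0.0313, edgeR's adjusted p = 1.832e-05). Smg6, the endonuclease of nonsense-mediated decay, was at 50.3, 56.4 and 47.9 CPM compared with 42.1, 38.7 and 37.2 CPM (0.39 ± 0.0752, edgeR's adjusted p = 0.000393). The count fell to 5 with only the 6 samples compared, and to 9 without DiCas7-11 NTG replicate 2, without untransfected replicate 1 or with upper-quartile scaling.

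Stress granule genes, the setting in which ataxin-2 is studied, were higher in 6 of 17 and lower in 1 (41.2%, compared with 21.9% of all genes). Usp10 and G3bp1 rose by 0.20 and 0.11, and the poly(A)-binding protein gene Pabpc1 was lower by −0.11 (edgeR's adjusted p = 0.00167). Ataxin-2's paralog gene Atxn2l (0.04, edgeR's adjusted p = 0.349) and Tardbp, which encodes TDP-43 (0.03, edgeR's adjusted p = 0.408), were not called. Of the 6 H3-K4 methyltransferase genes, Setd1b was called higher at 0.16 (edgeR's adjusted p = 0.0490), a call lost under 10 of 20 alternatives.

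Neuronal genes were lower in 10 of 31 and higher in 1, with a median of −0.0686. The share called was 35.5%, compared with 21.9% of all genes. Leaving out single libraries gave 7 to 10 lower and 1 to 3 higher. Tubb3, neuronal tubulin, was at 338, 327 and 328 CPM compared with 413, 423 and 402 CPM (log2 fold change −0.32 ± 0.0284, edgeR's adjusted p = 3.1e-09). The secreted neuropeptide precursor Vgf was at 344, 289 and 323 CPM compared with 396, 416 and 405 CPM, and tau (Mapt) at 159, 149 and 162 CPM compared with 200, 183 and 183 CPM. Ina, an intermediate filament gene, was the one called higher, by 0.14. With only the 6 samples compared, 5 were called lower, and with a correction for GC content 5 were called higher.

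The remaining stress lists moved little. Of 23 genes of the unfolded protein response, 5 were higher and 0 lower by edgeR (21.7%, near the 21.9% of all genes; 8 and 0 by DESeq2, 9 and 2 at an unadjusted p under 0.05). The counts were 8 and 1 without DiCas7-11 NTG replicate 1 and 4 and 2 without replicate 2. The members called included Hyou1 (501, 516 and 496 CPM compared with 445, 451 and 455 CPM), Dnajc3 and Manf at 0.16, 0.22 and 0.23, while Xbp1 was not called at −0.08 (edgeR's adjusted p = 0.0980). Of 18 heat shock genes, 5 were higher and 1 lower (33.3%, compared with 21.9% of all genes), with Hsph1 at 0.22 and Hsp90ab1 at −0.08. Without DiCas7-11 NTG replicate 1, 8 heat shock genes were higher. Lysosome and autophagy genes were lower in 10 of 41 and higher in 1 (26.8%, near the 21.9% of all genes). Psap, the saposin precursor, was at −0.17, the hydrolase gene Naglu at −0.35 and the kinase gene Ulk1 at −0.30. Targets of NRF2 were mixed with 5 of 22 higher and 3 lower (36.4%, compared with 21.9% of all genes), among them the glutathione synthesis gene Gclc at 0.21. Of these targets, 2 were higher without untransfected replicate 1 and 3 without DiCas7-11 NTG replicate 3. Of 29 immediate early genes, 4 were higher and 3 lower (24.1%, near the 21.9% of all genes), with Ier3 at −0.39 and Nr4a3 at 0.25. These counts were 1 and 5 without DiCas7-11 NTG replicate 1, 2 and 2 without untransfected replicate 1, and 1 and 2 without untransfected replicate 2. The zinc exporter gene Slc30a1 rose by 0.27 (edgeR's adjusted p = 0.00110). Of 37 replication-dependent histone genes tested, H2bc4 was higher and H2ac23 lower (5.41%, compared with 21.9% of all genes).

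**Figure D3:**
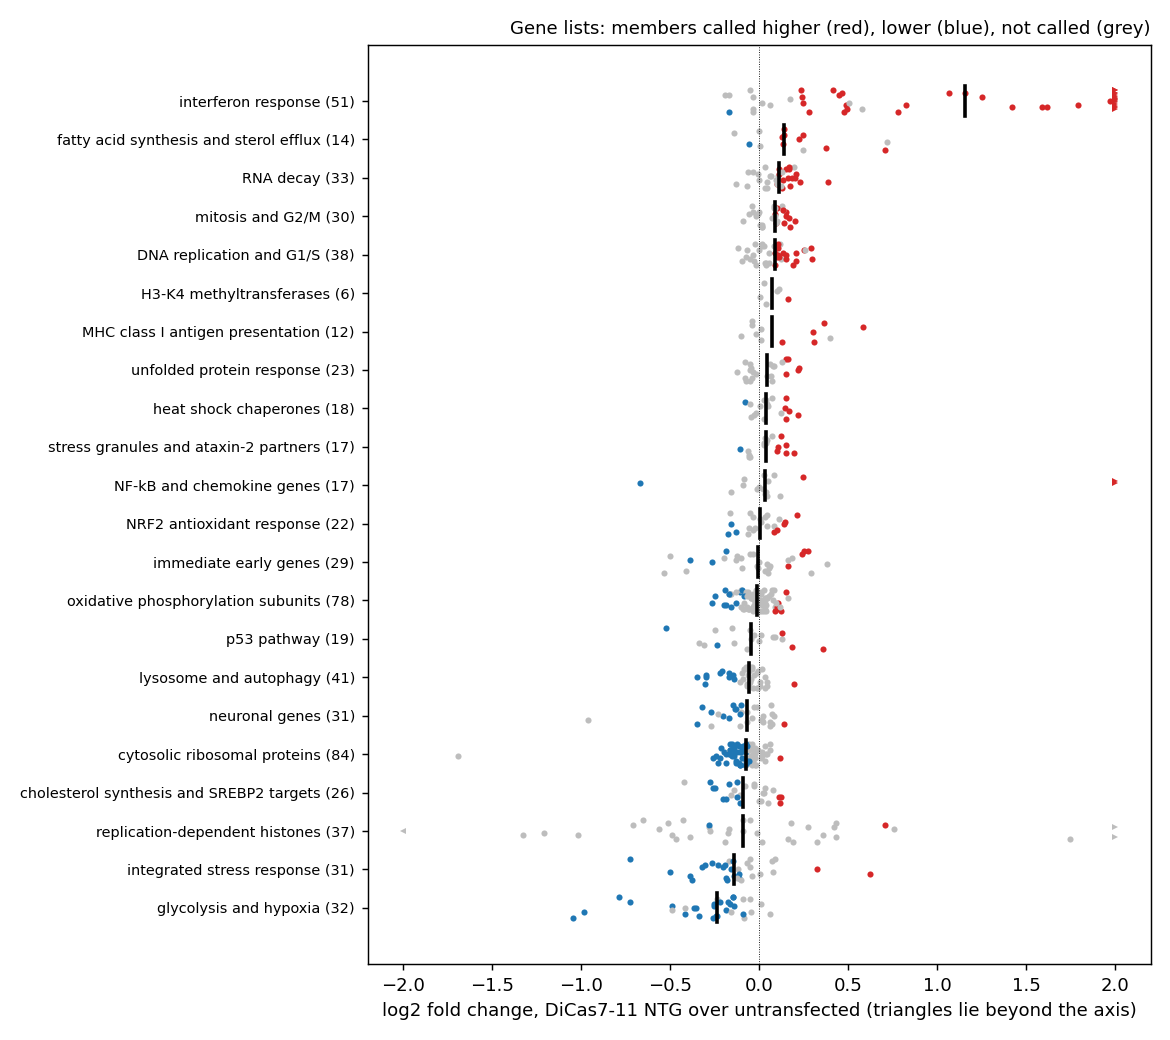
Log2 fold changes of DiCas7-11 NTG over untransfected samples for the tested members of 22 gene lists, with the number tested in brackets; red marks members called higher, blue lower and grey not called, black bars are medians, and triangles mark members beyond the axis. The median of the interferon response lies at 1.16, that of glycolysis and hypoxia at −0.238, and those of the other lists between −0.138 and 0.139.

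The control arms of the other effectors were set beside these values to ask what differed with DiCas7-11. They share the untransfected samples, so each comparison with them is given by its own counts: 1565 genes (11.3%; 5.6% higher, 5.66% lower) were called for RfxCas13d NTG, 2912 (20.9%; 10.3% higher, 10.6% lower) for HiFi-RfxCas13d NTG and 3520 (25.3%; 12.5% higher, 12.8% lower) for DiCas7-11 with the mATXN2 crRNA. For the interferon response the members called higher were 38, 33 and 35 of 51, in that order. Glycolysis and hypoxia genes called lower were 2, 20 and 23 of 32.

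The difference itself was tested between control arms, without the untransfected samples. DiCas7-11 NTG differed from RfxCas13d NTG in 471 genes (3.39%), 153 (1.1%) higher and 318 (2.29%) lower. With only the 6 samples compared 119 were called (8.4% of them higher instead of 32.5%). The count was 915 without DiCas7-11 NTG replicate 1 (48.5% higher), 214 and 220 without replicates 2 and 3, and 241 to 256 without any 1 RfxCas13d NTG replicate. In the interferon list, 20 of 51 were lower in DiCas7-11 NTG samples and 0 higher by edgeR (10 and 0 by DESeq2, 33 and 1 at an unadjusted p under 0.05). Oas1a was at 7.12, 6.45 and 3.47 CPM compared with 15.7, 12.5 and 16.8 CPM in RfxCas13d NTG samples (log2 fold change −1.42 ± 0.239, edgeR's adjusted p = 0.00062), Usp18, the ISG15 protease, at 5.91, 3.62 and 2.56 CPM compared with 11.2, 7.15 and 12 CPM, and Oasl2 lower by −0.91. Selenbp1 was also lower, at 3.36, 1.93 and 2.36 CPM compared with 5.96, 4.35 and 6.33 CPM. Antigen presentation genes were lower in 7 of 12. Integrated stress response genes were lower in 9 of 31 and higher in 0 by edgeR, and in 19 and 2 at an unadjusted p under 0.05. The interferon count was 11 without DiCas7-11 NTG replicate 3 and 13 without replicate 2.

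Of glycolysis and hypoxia genes, 17 of 32 were lower in DiCas7-11 NTG than in RfxCas13d NTG samples. Eno2 was at 51.5, 36.5 and 46.9 CPM compared with 63.1, 64.0 and 65.7 CPM (−0.52 ± 0.0954, edgeR's adjusted p = 0.00132), and Slc2a3 was lower by −0.25 (edgeR's adjusted p = 0.000777). The count changed with single libraries: without DiCas7-11 NTG replicate 2 it fell to 5, without replicate 3 to 9, without replicate 1 it rose to 27, and it was 10 without RfxCas13d NTG replicate 2 and 8 without replicate 3.

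DiCas7-11 NTG differed from HiFi-RfxCas13d NTG in 98 genes (0.705%), 28 (0.201%) higher and 70 (0.504%) lower. With only the 6 samples compared 13 were called (15.4% of them higher instead of 28.6%). The count was 259 without DiCas7-11 NTG replicate 1 (44.4% higher), 62 without replicate 3, and 59 and 61 without HiFi-RfxCas13d NTG replicates 1 and 2. Of the 51 interferon genes and the 32 glycolysis and hypoxia genes, 0 were called by edgeR, DESeq2 or limma, and 9 interferon genes were higher and 2 lower at an unadjusted p under 0.05, compared with 1 higher and 0 lower of the glycolysis and hypoxia genes. Of 31 integrated stress response genes, 3 were lower and 0 higher by edgeR, Asns among them (−0.11 ± 0.0177, edgeR's adjusted p = 0.00108). For this list the lower and higher counts were 7 and 0 by DESeq2 and by voom with sample weights, 4 and 0 by limma-trend, and 21 and 1 at an unadjusted p under 0.05, and 12 were lower without DiCas7-11 NTG replicate 1, while 1 was lower without replicate 3 or without HiFi-RfxCas13d NTG replicate 2. Sapcd1 and Rnf157, a ubiquitin ligase gene, were higher than in both Cas13d control arms. Rnf157 was at 20.4, 17.2 and 18.5 CPM in DiCas7-11 NTG samples, at 14.4, 13.9 and 14.0 CPM in RfxCas13d NTG samples and at 11.1, 12.2 and 11.9 CPM in HiFi-RfxCas13d NTG samples. Untransfected samples held 17.4, 19.3 and 16.8 CPM of Rnf157 and overlapped the DiCas7-11 samples (log2 fold change 0.06, edgeR's adjusted p = 0.675). Sapcd1 showed the same order, with 5.02, 4.95 and 4.04 CPM in DiCas7-11 NTG samples, 2.70, 2.34 and 2.72 CPM in HiFi-RfxCas13d NTG samples and 3.64, 4.94 and 4.86 CPM in untransfected samples. Acta2 was low in all control arms, at 8.55, 9.28 and 9.79 CPM in RfxCas13d NTG samples and 7.02, 7.12 and 8.17 CPM in HiFi-RfxCas13d NTG samples.

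**Figure D4:**
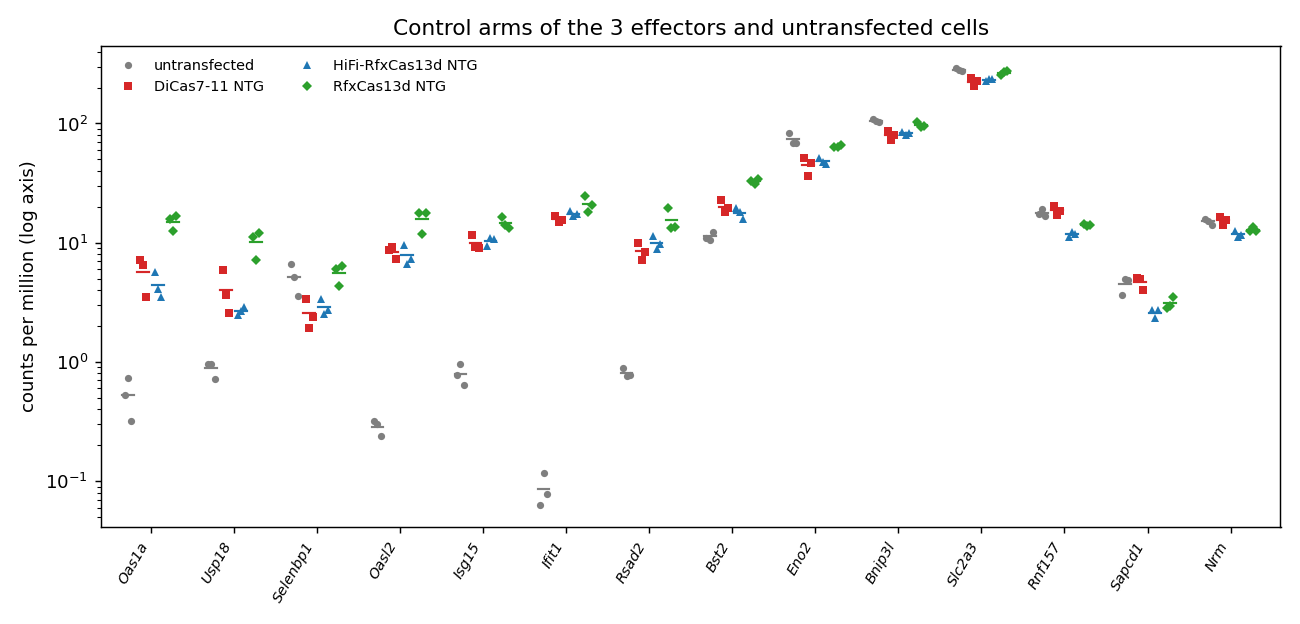
CPM (log axis) of 14 genes in untransfected cells and the NTG arms of 3 effectors; points are libraries and bars are means of 3. Oas1a and Usp18 are highest in RfxCas13d NTG samples, and Rnf157 lies at 11.1 to 12.2 CPM in HiFi-RfxCas13d NTG samples compared with 17.2 to 20.4 CPM in DiCas7-11 NTG samples.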

How the data were processed

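RNA-seq was measured in 24 Neuro2A samples, 3 in each of 8 groups. The authors quantified reads with Salmon 1.5.2 on GRCm39, imported them with tximport in R 4.2.2 and deposited expected counts scaled for transcript length, which need not be whole. All 24 samples carried a column, 0 columns belonged to other samples, and columns of the authors' filter were used in 1 alternative alone.

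Expected counts were rounded, genes with at least 0.5 CPM in 3 samples were kept (13901 of 39253), and TMM scaling with edgeR's quasi-likelihood test (version 4.0.16, R 4.3.3) was fitted to all 24 samples with group as the factor. CPM values are on the TMM-scaled library sizes. Each SE was derived from the test, as the absolute log2 fold change divided by the square root of its F statistic. P-values were adjusted by Benjamini-Hochberg over all genes tested, and a gene was called at an adjusted p under 0.05. DESeq2 1.42.0 and limma 3.58.1 were alternatives. The edgeR, DESeq2 and limma tests were run on simulated counts in which all groups shared each gene's spread. Other steps were not tested in this way. Because counts were scaled by length, counting intervals are approximate and cover counting error only.

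The genes named were the 12 largest rises and the 12 largest falls among called genes with no overlap between groups and a mean count of at least 50 (predicted genes apart), up to 6 called members of each list with the smallest p, and defining members that were not called; for the other control arms, the 4 largest rises and falls. Eif2ak2, Cgas, Irf7, Irf9, Ifngr2, Nptxr, Rpl7l1 and Rplp0 were added after their values were seen, and some genes that met the rule are not reported here. The members and lists were chosen with earlier results of these data known. Promoters came from RefSeq (GRCm38.p6), and transcript length and GC content from an annotation of that older build, by gene name.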

Additional observations from a re-analysis of the deposited data

Results flagged for a closer look

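The difference between control arms was tested directly, without the untransfected samples, and 471 genes were called between DiCas7-11 NTG and RfxCas13d NTG samples, and 98 between DiCas7-11 NTG and HiFi-RfxCas13d NTG samples, by edgeR's quasi-likelihood test with Benjamini-Hochberg adjustment. Against RfxCas13d NTG, the largest rises in log2 fold change were Sapcd1 at 0.5817, Zfp580 at 0.5816, Prrxl1 at 0.438 and Rnf157 at 0.4042. The largest falls were Oas1a at −1.415, Usp18 at −1.354, Selenbp1 at −1.147 and Oasl2 at −0.911, of which Oas1a, Usp18 and Oasl2 belong to the interferon response.

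Against HiFi-RfxCas13d NTG, the largest rises were Sapcd1 at 0.8426, Rnf157 at 0.6646, Nudt13 at 0.5104 and Nrm, which encodes a protein of the inner nuclear membrane, at 0.3834. The largest falls were the stress-response gene Nupr1 at −0.4532, the transcription factor gene Klf5 at −0.3839, Trim66 at −0.3783 and Dysf, which encodes the membrane repair protein dysferlin, at −0.3628. Sapcd1, Zfp580, Rnf157, Nrm, Nupr1 and Klf5 were not called against untransfected samples.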

How the results depend on the processing

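Of the 24 largest rises and falls, 22 kept their call and direction under all 20 alternatives, Btg3 and Npcd being the exceptions. Against untransfected cells, 1800 genes were called when only the 6 samples compared entered the fit instead of 3044, and leaving out single libraries gave 2094 to 3377. Against RfxCas13d NTG, that 6-sample fit called 119 genes instead of 471, and leaving out single libraries gave 214 (without DiCas7-11 NTG replicate 2) to 915 (without replicate 1). Against HiFi-RfxCas13d NTG, it called 13 instead of 98, and leaving out libraries gave 59 (without HiFi-RfxCas13d NTG replicate 1) to 259 (without DiCas7-11 NTG replicate 1). The 6-sample fits had fewer samples to estimate the spread. The 24-sample fit shared each gene's spread over all groups, although DiCas7-11 NTG replicates differed more than those of the other groups. Its p-values and SEs may therefore be too small for this arm. Which of these lowered the counts was not tested.

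With the replicate number as a block, 3283 genes were called against untransfected cells, 675 against RfxCas13d NTG and 186 against HiFi-RfxCas13d NTG. In the comparison with untransfected cells, same-numbered samples deviated together too weakly to be treated as pairs (correlations of 0.016, 0.00618 and 0.0188). There they share only a number. Whether same-numbered samples deviated together in the comparisons with RfxCas13d NTG and HiFi-RfxCas13d NTG was not tested. How far the spread between 3 replicates limits the count of 98 genes was not tested.

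Rplp0 turned to a log2 fold change of 0.002712 with a correction for GC content, and Rplp0, Rpl8 and Rpl36 to 0.005913, 0.002696 and 0.02923 with a correction for gene length and GC content, none of them called there; the cause was not tested. Both corrections were added after the data were seen. Genes changed by over 1 on the log2 scale numbered 57 by DESeq2 and 54 with a minimum of 2 CPM, instead of 129; these alternatives tested 12013 and 11716 genes.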

Other observations

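The inhibitors of DNA binding, a family of helix-loop-helix proteins that hold back differentiation and respond to bone morphogenetic proteins, were on no list and were chosen after their values were seen. Id2 was at 20.1, 21.4 and 23.7 CPM in DiCas7-11 NTG samples and at 7.82, 10.7 and 8.77 CPM in untransfected samples (log2 fold change 1.25, edgeR's adjusted p = 2.548e-10). Id3 was at 19.2, 13.6 and 16.7 CPM compared with 6.74, 6.86 and 8.24 CPM, a log2 fold change of 1.18, and Id1 at 45.8, 36.1 and 37.5 CPM compared with 24.7, 25.7 and 24.8 CPM, one of 0.66. Id4 was called at 0.55 (edgeR's adjusted p = 0.00803). All 4 members of the family were thus higher in DiCas7-11 NTG samples, compared with 11.1% of all genes tested that were called higher.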
